A study of Mus musculus with 12 samples.

Results

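The genes described here are 10 of the 54532 genes in the tables and were taken by name: the interleukin-1 (IL-1) receptors Il1r1 and Il1r2 and their partner Il1rap, the cytokine gene Tnf, the NF-kB subunits Nfkb1, Nfkb2, Rela and Relb, and the NF-kB inhibitors Nfkbia and Tnfaip3. They were followed in newborn testis after dexamethasone (dex), a synthetic agonist of the glucocorticoid receptor (GR). Dams of the Tg(Pou5f1-EGFP)2Mnn strain received 10 µg of dex per g of body weight, or saline in the same volume, intraperitoneally on E17.5 and E18.5 (embryonic days), and the male pups received the same agent under the skin on postnatal day (PN) 0. Testes of PN1 pups were sorted by fluorescence of the OCT4-GFP transgene, the GFP-positive fraction being germ cells and the remainder somatic cells, and poly(A) RNA was sequenced. Each of the 2 fractions was taken after saline and after dex, giving 4 groups of 3 libraries, 12 in all. All 4 groups carry the transgene, and each library is a pool of testes from more than 1 litter.

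IL-1 and tumor necrosis factor (TNF) are cytokines that switch on the transcription factor NF-kB. IL-1 binds the signalling receptor IL1R1, which then needs the accessory chain IL1RAP, whereas IL1R2 binds the cytokine without passing on a signal and is therefore called a decoy receptor. At rest, NF-kB dimers of REL subunits are held in the cytoplasm by IkB proteins such as IkB-alpha (Nfkbia), and active NF-kB raises the transcription of Nfkbia and Tnfaip3, which then turn the pathway off. Glucocorticoids are used in medicine because they restrain this pathway, and in the testis the resident macrophages, Sertoli cells and Leydig cells are known to make or answer to these cytokines.

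All 10 genes are protein coding, and their places are given on mm10 as in the files. Il1r1 (chr1:40225080-40317257) and Il1r2 (chr1:40074079-40125231) lie on the plus strand in 1 cluster of IL-1 receptor genes, and Il1rap lies at chr16:26581704-26730117. Tnf is at chr17:35199381-35202007. Of the subunits, Nfkb1 is at chr3:135584655-135691547, Nfkb2 at chr19:46304737-46312090, Rela at chr19:5637483-5648130 and Relb at chr7:19606217-19629438. The inhibitors Nfkbia and Tnfaip3 are at chr12:55489410-55492647 and chr10:19000910-19015657, both on the minus strand.

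Each library held between 18459692 and 25178477 counts. The sort markers followed the labels: Ddx4, Dazl and Pou5f1, which mark germ cells, were higher in germ than in somatic cells by 8.76, 9.67 and 8.68 on the log2 scale in saline, and Amh and Star, which mark Sertoli and Leydig cells, were lower by a log2 fold change of -7.21 and -2.53. The summed level of 8 germ cell markers in somatic libraries was 0.341% of that in germ libraries in saline and 0.298% in dex. In the other direction, the sums of somatic markers in germ libraries, as a percent of their somatic level in saline and in dex, were 1.37% and 0.983% for Sertoli cells, 2% and 1.34% for peritubular and stromal cells, 6.47% and 5.6% for Leydig cells, 28.1% and 27.2% for endothelial cells and 21.7% and 65.2% for macrophages. The last 2 sums do not measure carry-over alone. In dex, 2 endothelial markers (Pecam1 and Egfl7) were called higher in germ than in somatic cells and 4 lower. Of the macrophage markers, 2 (Mrc1 and Fcer1g) were called higher in germ cells in dex and 5 lower. Csf1r, Adgre1, Lyz2 and C1qa, also macrophage markers, were each at 0.607 CPM or less in every germ library. In such sorted bulk RNA, fewer cells of a type and less RNA per cell cannot be told apart.

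**Figure D1:**
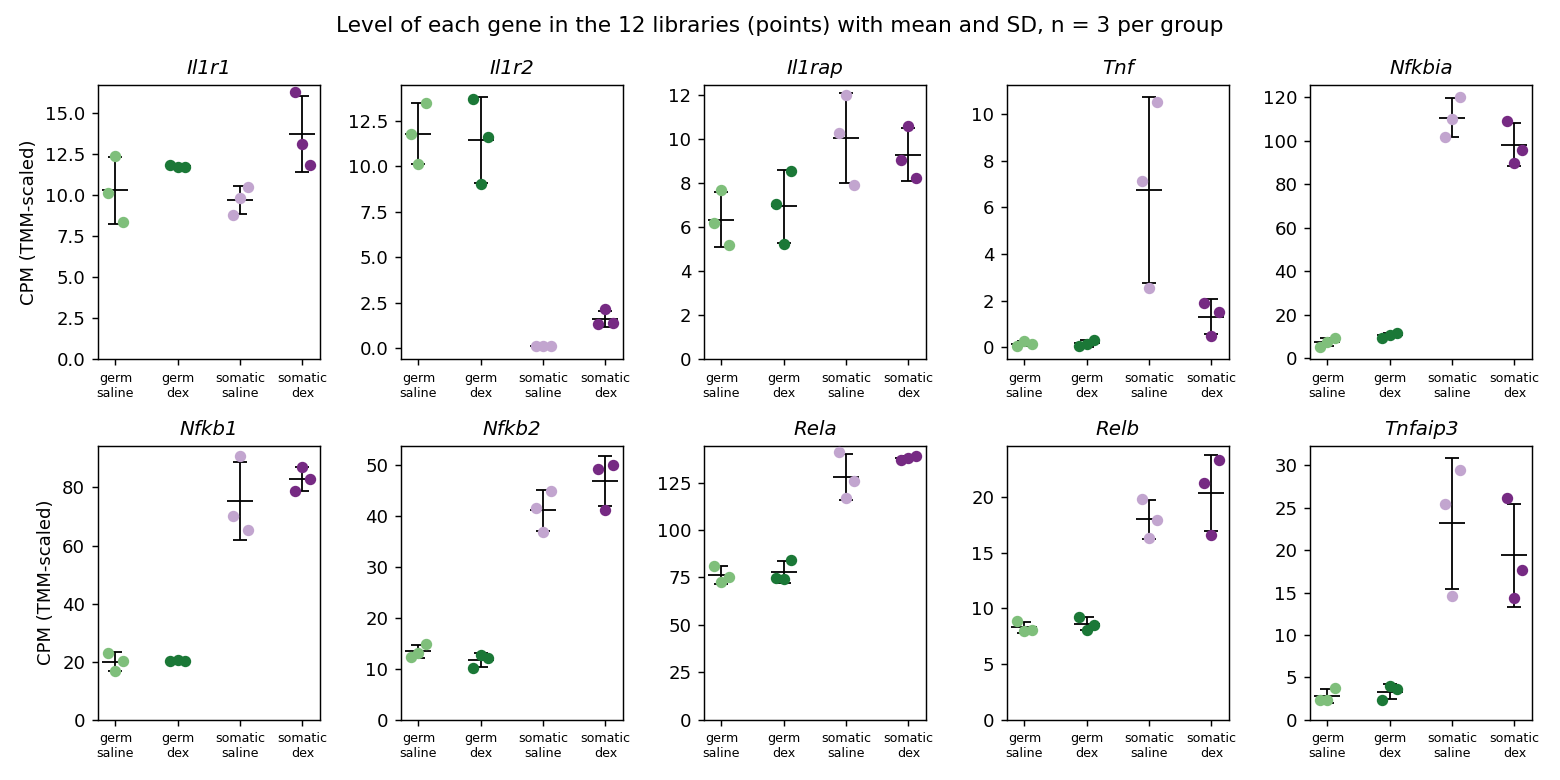
Level of each of the 10 genes in CPM (counts scaled to a common library size, with TMM) on the vertical axis, in the 3 libraries of each group (points), with the mean and SD (n = 3). Il1r2 was the only 1 of the 10 genes whose germ libraries all lay above all of its somatic libraries. Tnf, Nfkbia, Nfkb1, Nfkb2, Rela, Relb and Tnfaip3 lay higher in every somatic library than in any germ library.

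The first comparison set germ against somatic cells in saline pups and asked where these genes are transcribed. Of the 10 genes, 9 differed by edgeR's quasi-likelihood test at an adjusted p of 0.05 or less, 1 higher and 8 lower in germ cells; of all 18870 genes tested, 76.5% differed, 39.8% higher and 36.7% lower, so that the share called is high for any gene. In this saline fit Il1r2 passed the filter on low counts only through the germ libraries and Tnf only through the somatic libraries. Nothing is read from their part in these counts. The median log2 fold change of germ over somatic was -1.43 for the 10 genes and 0.0716 for all genes tested. In dex pups 7 of the 9 tested genes differed, 1 higher and 6 lower, against 76.3% of all genes (40.5% higher, 35.7% lower). The libraries of the 2 populations did not overlap for 9 of 10 genes in saline, against 79.5% of all genes, and for 7 of 9 in dex, against 80.1%.

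Il1r2, the decoy receptor, was a germ cell transcript. Its level in CPM was 11.8, 10.1 and 13.5 in the saline germ libraries and 0.0985, 0.13 and 0.0953 in the saline somatic libraries. Every germ library stood far above every somatic library, and the saline somatic values rest on 2, 3 and 2 counts. The log2 fold change of germ over somatic was 6.63 in saline (SE 0.361, edgeR adjusted p = 6.67e-09) and 2.75 in dex (SE 0.306, adjusted p = 4.31e-06). In saline germ cells Il1r2 ranked second of the 10 genes by FPKM, a level per kilobase of gene, at 6.17 ± 0.91 (SD, n = 3), below Rela and overlapping with Nfkbia (5.28 to 7.1 FPKM for Il1r2, 3.3 to 5.77 FPKM for Nfkbia). In saline somatic cells it ranked last, at 0.0539 ± 0.00766 FPKM (SD, n = 3). The level of Il1r2 in saline somatic cells was 0.914% of its germ cell level, above the 0.341% found for the summed germ cell markers; the part of germ cell carry-over in it was not tested.

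Il1r1, the signalling receptor, was the only 1 of the 10 genes that did not pass between the populations in saline. Its CPM was 10.1, 12.4 and 8.34 in saline germ libraries and 8.76, 9.83 and 10.5 in saline somatic libraries. The ranges overlapped, and the log2 difference was 0.0195 with a 95% interval from -0.421 to 0.46. In dex the log2 difference of germ from somatic was -0.30, with an interval from -0.706 to 0.102.

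The 2 receptors can be set against each other within a library, since FPKM is per length. The ratio of Il1r2 FPKM to Il1r1 FPKM was 3.88, 2.73 and 5.4 in the saline germ libraries and 3.86, 2.57 and 3.32 in the dex germ libraries. It was 0.0375, 0.0441 and 0.0303 in saline somatic libraries and 0.269, 0.541 and 0.391 in dex somatic libraries. Decoy transcript thus exceeded signalling receptor transcript in all 6 germ libraries and in none of the 6 somatic libraries, and the dex and saline somatic ratios did not overlap.

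**Figure D2:**
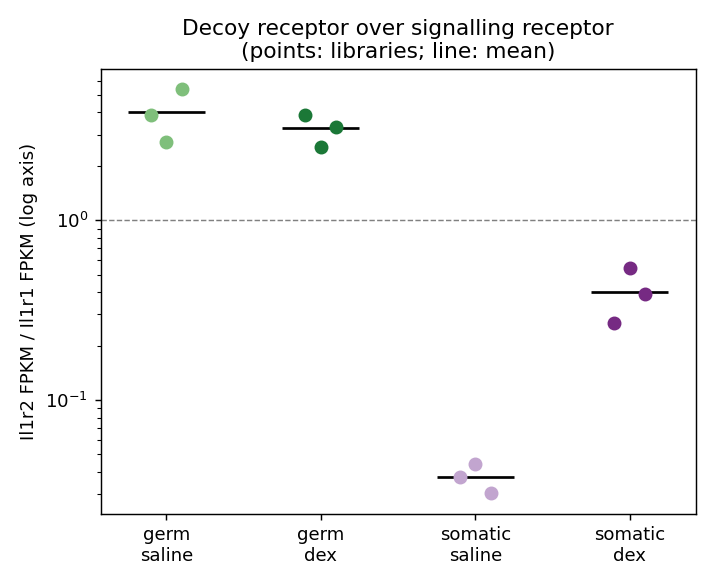
Ratio of Il1r2 FPKM to Il1r1 FPKM on a log axis, 1 point per library and a line at the mean of each group of 3. The dashed line marks equal FPKM. Germ libraries sit between 2.57 and 5.4, dex somatic libraries between 0.269 and 0.541, and saline somatic libraries between 0.0303 and 0.0441.

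Il1rap, the accessory chain that IL1R1 needs, was somewhat lower in germ cells. It read 6.19, 7.68 and 5.17 CPM in saline germ libraries and 10.3, 12 and 7.91 CPM in saline somatic libraries. The lowest somatic value lay just above the highest germ value, and the log2 fold change was -0.73 (SE 0.234, edgeR adjusted p = 0.0133). Under limma on FPKM values the difference no longer passed (adjusted p = 0.0805 with a pseudocount of 0.1 and 0.0519 with 1; 0.00531 to 0.0805 over all 15 alternatives). In dex the groups overlapped, and the difference did not pass (log2 -0.50, interval -1.03 to 0.0372).

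Tnf, which encodes the cytokine TNF, was close to absent from the germ libraries. Its counts were 1, 5 and 3 in saline germ cells and 145, 59 and 220 in saline somatic cells. The somatic libraries read 7.14, 2.56 and 10.5 CPM, a spread of several fold within the group, with replicate 2 lowest. The log2 fold change of germ over somatic was -5.52 (SE 0.672, edgeR adjusted p = 1.07e-05). In dex, Tnf was too low to pass the filter on low counts: 12 counts over the 3 germ libraries against 76 over the 3 somatic libraries gave a ratio of 0.135 (95% counting interval 0.0669 to 0.25, which covers counting error only).

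Among the NF-kB subunits, Rela, which encodes the main activating subunit p65, differed least between the populations. It read 81.3, 72.4 and 75.3 CPM in saline germ cells and 141, 117 and 126 CPM in saline somatic cells, without overlap. The log2 fold change was -0.81 (SE 0.0977, edgeR adjusted p = 9.96e-06), with -0.90 in dex, and at 28 ± 1.64 FPKM (SD, n = 3) Rela stood first of the 10 genes in saline germ cells.

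Nfkb1, which encodes the p105 precursor of p50, and Nfkb2 and Relb, which serve the non-canonical branch of the pathway, were lower in germ cells too. The log2 fold changes in saline were -1.98 for Nfkb1, -1.68 for Nfkb2 and -1.18 for Relb, with edgeR adjusted p of 1.69e-07, 2.61e-07 and 4.01e-05. In dex they were -2.11, -2.07 and -1.31. Saline germ libraries ran from 16.8 to 23.1 CPM for Nfkb1 and saline somatic libraries from 65.4 to 90.7 CPM. The value of Nfkb2 is uncertain: Psd overlaps it on the opposite strand and had 99.6% as many counts, and 14.1% of the 64-base words of Nfkb2 also occur in other genes. The strand setting of the counting is not given in the sources used here.

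The inhibitors had larger log2 fold changes than the subunits, though the difference between genes was not tested. Nfkbia read 5.35, 7.42 and 9.26 CPM in saline germ cells and 102, 110 and 120 CPM in saline somatic cells. Germ and somatic libraries lay far apart, and the log2 fold change was -3.98 (SE 0.168, edgeR adjusted p = 7e-10). Tnfaip3, which encodes the ubiquitin-editing enzyme A20, read 2.32, 2.29 and 3.8 CPM in saline germ cells and 25.4, 14.6 and 29.5 CPM in saline somatic cells, a log2 fold change of -3.11 (SE 0.299, edgeR adjusted p = 1.26e-06). In dex the log2 fold changes were -3.29 for Nfkbia and -2.62 for Tnfaip3. Nfkbia in germ cells was 6.64% of its somatic level in saline and 10.8% in dex, and the part of somatic cell carry-over in this level was not tested.

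By FPKM the order of the 10 genes also differed between the populations. In saline somatic cells Nfkbia was first at 65.7 ± 5.78 (SD, n = 3), then Rela at 45.2 ± 5.72 and Nfkb2 at 12 ± 1.51. In saline germ cells Rela was followed by Il1r2, Nfkbia at 4.55 ± 1.24 FPKM and Nfkb2 at 4.07 ± 0.435 FPKM, and the last 2 lay within each other's spread. Tnf was last in germ cells of both treatments, and Il1r2 was last in saline somatic cells only. In dex germ cells Nfkbia, at 6.62 ± 0.648 FPKM, came before Il1r2, at 6.04 ± 1.26 FPKM.

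The wider pathway held genes higher and genes lower in germ cells. In 3 of its lists 15 of 22, 11 of 16 and 14 of 17 genes were called, on either side of the 76.5% of all genes. Of 22 TNF receptor and signalling genes, 3 were higher and 12 lower in saline germ cells; among them Tnfrsf1a, the main TNF receptor, had a log2 fold change of -3.35. The second TNF receptor, Tnfrsf1b, read 4.99, 2.61 and 3.8 CPM in saline germ cells and 9.12, 5.47 and 5.69 CPM in dex germ cells. In dex it was higher in germ than in somatic cells by 2.53 on the log2 scale. In saline it was not called, and the germ libraries overlapped with the somatic ones (3.05, 0.78 and 3.38 CPM). Of 16 adaptors and kinases below the IL-1 receptor, 6 were higher and 5 lower, with Tab3 at 2.05 and Irak1 at -1.68. Of 17 other Rel, IkB and IKK genes tested, 5 were higher and 9 lower, with Chuk, the kinase IKK-alpha, at 1.03 and Bcl3, a nuclear IkB protein, at -6.12. Of 19 textbook NF-kB target genes tested, 3 were higher, 15 lower and 1 not called, a share above that of all genes. Nothing is read from this share. Cxcl1, Cxcl2, Vcam1 and Cd83 had at most 10 counts in any saline germ library. These genes passed the filter on low counts only through the somatic libraries. Mmp9, a matrix metalloproteinase, was the exception with the largest size, 7.21 higher in germ cells, and Lcn2, a neutrophil protein, the opposite, at -7.28. Of the IL-1 family ligands, Il18 was 4.45 higher in germ cells and Il1b had a log2 fold change of -6.58. Il18 passed the filter on low counts only through the germ libraries, and Il1b, Bcl3 and Lcn2 only through the somatic libraries. The sizes of these changes are a description only. Otulin, a deubiquitinase that limits TNF receptor signalling, was 1.13 higher in germ cells in saline. In dex the IkB gene Nfkbid was 1.49 higher, and in saline Nfkbid was not called.

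The reference sequence just before the start of 5 of these genes is given: Il1r2 and Tnf because they were called for dex in somatic cells, and Nfkbia, Nfkb2 and Tnfaip3 because their windows hold matches to the NF-kB consensus. The windows at the second start of Il1r1 and at the other starts of Nfkb2 hold matches too and are not shown. Tnf, Nfkb1 and Relb are known targets of NF-kB as well. The sequences are from RefSeq on GRCm38.p6, the 250 bases before the start, 5′ to 3′ on the gene's strand. Capitals mark matches to the NF-kB consensus on either strand.
Nfkbia, chr12:55492648-55492897, minus strand: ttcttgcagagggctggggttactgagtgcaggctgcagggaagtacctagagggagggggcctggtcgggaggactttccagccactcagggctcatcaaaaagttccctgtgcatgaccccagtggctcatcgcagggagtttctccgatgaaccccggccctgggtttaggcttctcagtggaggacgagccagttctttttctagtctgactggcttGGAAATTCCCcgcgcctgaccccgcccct
Nfkb2, chr19:46304487-46304736, plus strand: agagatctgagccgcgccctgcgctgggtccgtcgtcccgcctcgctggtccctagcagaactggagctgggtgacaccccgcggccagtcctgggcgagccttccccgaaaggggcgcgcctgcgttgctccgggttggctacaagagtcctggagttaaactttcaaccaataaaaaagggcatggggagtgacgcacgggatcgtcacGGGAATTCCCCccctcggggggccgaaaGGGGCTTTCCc
Tnfaip3, chr10:19015411-19015660, minus strand: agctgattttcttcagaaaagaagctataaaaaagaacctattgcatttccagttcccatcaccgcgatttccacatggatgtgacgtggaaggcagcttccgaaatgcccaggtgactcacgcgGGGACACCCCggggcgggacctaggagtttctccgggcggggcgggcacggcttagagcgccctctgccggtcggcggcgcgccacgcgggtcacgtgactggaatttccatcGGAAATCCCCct
Tnf, chr17:35202008-35202257, minus strand: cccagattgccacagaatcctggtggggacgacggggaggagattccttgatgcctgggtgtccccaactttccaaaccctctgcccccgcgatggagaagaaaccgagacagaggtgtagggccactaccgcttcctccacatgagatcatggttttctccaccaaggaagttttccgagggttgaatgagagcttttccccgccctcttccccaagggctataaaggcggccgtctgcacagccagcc
Il1r2, chr1:40085843-40086092, plus strand: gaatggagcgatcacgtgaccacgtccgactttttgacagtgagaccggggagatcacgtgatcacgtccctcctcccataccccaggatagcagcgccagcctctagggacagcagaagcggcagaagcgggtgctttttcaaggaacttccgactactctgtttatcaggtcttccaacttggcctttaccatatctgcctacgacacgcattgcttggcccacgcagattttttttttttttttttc
Of the 10 genes 8 were matched by symbol in the table of starts used, with 12 starts in all; the promoters of Nfkb1 and Relb were not analysed here. Within 250 bases before and 50 after a start, the NF-kB consensus was matched at 6 of the 12 starts, against 4.51% of 32851 promoters of this length: the start of Nfkbia, all 3 of Nfkb2, of which 2 share a match, and the second of Tnfaip3 and of Il1r1. The match of Nfkbia lay at -29 from the start and the nearer match at the second start of Tnfaip3 at -12. At the first start of Nfkb2 the matches at -39 and -38 overlap and a further match lay at -11. The starts shown for Il1r2 and Tnfaip3 lie inside the genes as the files place them. The palindromic GR consensus (GNACA and TGTNC with 3 free bases between them, the same on both strands) was in none of the 12 windows and in 0.475% of all promoters. A match describes letters in a window, not binding.

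In somatic cells, dex was compared with saline to ask which transcripts answer to the drug. Il1r2 rose and Tnf fell; the other 8 genes did not pass. That is 2 of 10 genes called (1 higher, 1 lower) against 3.91% of the 16766 genes tested (2.74% higher, 1.17% lower). Il1r2 passed the filter on low counts only through the dex libraries and Tnf only through the saline libraries. The genes were also chosen with results of these data known, so nothing is read from this share. The median log2 fold change was 0.16 for the 10 genes and -0.00664 for all genes tested.

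**Figure D3:**
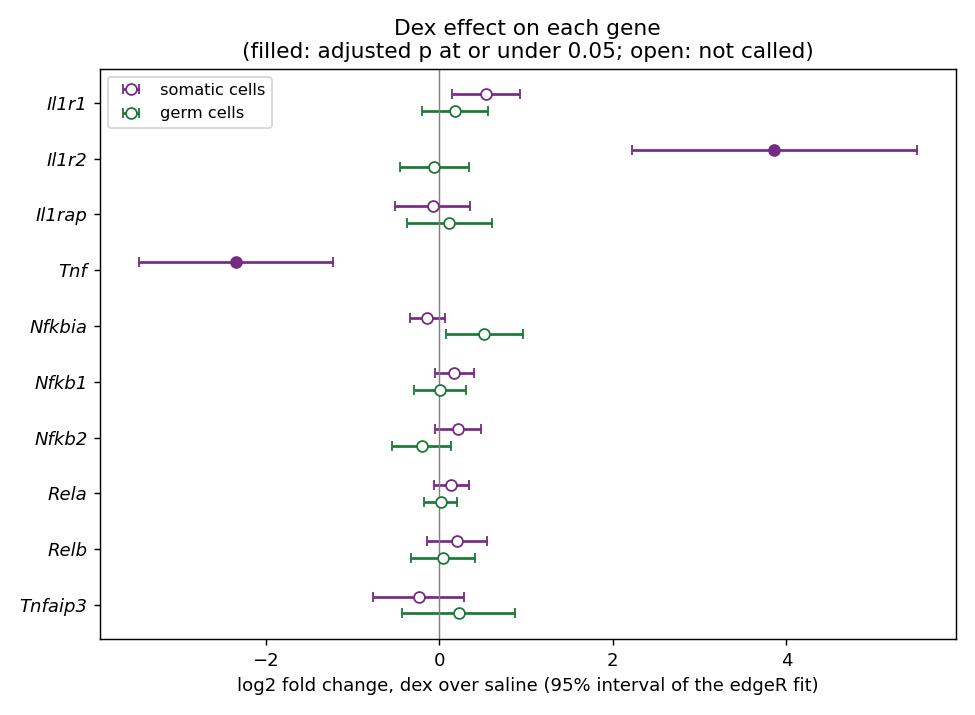
Log2 fold change of dex over saline on the horizontal axis for each gene, in somatic cells (purple) and germ cells (green), with the 95% interval of the edgeR fit (3 libraries per group); filled points passed at an adjusted p of 0.05. Il1r2 at 3.86 and Tnf at -2.34 in somatic cells are the only filled points, and Tnf in germ cells was not tested.

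Il1r2 was read by 24, 43 and 28 counts in the dex somatic libraries and by 2, 3 and 2 counts in the saline somatic libraries. In CPM these were 1.32, 2.13 and 1.38 against 0.0985, 0.13 and 0.0953, with no overlap. The log2 fold change was 3.86 (SE 0.769, 95% interval 2.22 to 5.5, edgeR adjusted p = 0.00939). Counted over the groups, 95 against 7 counts gave a ratio of 14.9 with a 95% counting interval of 6.96 to 38.1, which covers counting error only. At 0.83 ± 0.24 FPKM (SD, n = 3) Il1r2 was still low in somatic cells, 14.1% of its level in dex germ cells in CPM. The call was lost when dex replicate 2 (log2 3.61, adjusted p = 0.0679), saline replicate 1 (3.82, 0.0574) or saline replicate 3 (3.79, 0.0596) was left out; over 14 alternatives the adjusted p ran from 4.57e-05 to 0.0679.

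Neutrophils are known to carry IL1R2, so markers of such cells are given beside it. The summed CPM of 11 neutrophil and mast cell markers was 19.2, 37.7 and 16.8 in dex somatic libraries and 19.6, 16.1 and 27.4 in saline somatic libraries, so the groups overlapped, and 0 of the 6 tested markers were called by edgeR (0 also at an unadjusted p under 0.05). S100a8, a neutrophil calcium-binding protein, was highest in dex replicate 2 at 10.6 CPM, the library in which Il1r2 was highest too. Cxcr2, a neutrophil chemokine receptor, read 1.1, 2.32 and 1.58 CPM in dex and 0.197, 0.217 and 1.52 CPM in saline; its log2 fold change of 1.39 did not pass (edgeR adjusted p = 0.424). The part of these cells in the Il1r2 result was not tested. Markers of peritubular and stromal cells were higher in dex. Of these, 5 of 9 were called higher, against 2.74% of all genes tested, and 9 of 9 had a positive log2 fold change, with a median of 0.44. Their sum ran from 8660 to 10000 CPM in dex and from 5320 to 7050 CPM in saline. Their part in the Il1r2 result was not tested. The summed germ cell markers were no higher in dex than in saline somatic libraries, 7.85 to 8.75 CPM against 8.76 to 9.62 CPM.

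Tnf was read by 35, 10 and 31 counts in dex and 145, 59 and 220 counts in saline somatic libraries. In CPM the values were 1.92, 0.495 and 1.53 against 7.14, 2.56 and 10.5. The groups did not overlap, but the highest dex value lay close to the lowest saline value. In this fit Tnf passed the filter on low counts only through the saline libraries, as Il1r2 did only through the dex libraries. Tnf fell by 2.34 on the log2 scale (SE 0.528, 95% interval -3.46 to -1.22, edgeR adjusted p = 0.0194). The call was lost without dex replicate 2 (log2 -1.94, adjusted p = 0.0763), dex replicate 3 (-2.47, 0.0606), saline replicate 1 (-2.28, 0.0722) or saline replicate 3 (-1.86, 0.153), and under limma on FPKM (0.151 and 0.152); over 15 alternatives the adjusted p ran from 8.97e-08 to 0.153.

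Macrophages are the best known source of TNF, and most of their markers were lower in dex too. Of 15 macrophage markers, 14 had a negative log2 fold change, with a median of -1.14. The number called lower was 5, against 1.17% of all genes tested. All marker lists were chosen with results of these data known, so their counts of calls are a description only. None of the 15 was at 0 in every library of either group. Csf1r, the receptor on which macrophages depend, read 4.01, 3.36 and 2.92 CPM in dex and 8.71, 9.53 and 17.0 CPM in saline (log2 -1.75, edgeR adjusted p = 0.002), and Lyz2, lysozyme, had a log2 fold change of -1.87. Adgre1 (F4/80) at -1.26 and C1qa, a complement subunit, at -1.14 did not pass. The summed markers ran from 31.8 to 43.9 CPM in dex and from 69.6 to 121 CPM in saline. Within saline, replicate 2 had the lowest Tnf, while the lowest marker sum was in replicate 1 (69.6 CPM, against 76.4 CPM in replicate 2). As a percent of that sum, Tnf was 4.38, 1.27 and 4.82 in dex and 10.3, 3.34 and 8.65 in saline, so that the groups overlapped on this scale through saline replicate 2. The part of the macrophage markers in the Tnf result was not tested. Lymphocyte markers also summed lower in dex, 0.933 to 1.93 CPM against 4.68 to 5.0 CPM, with 1 of 3 tested called lower (Cd79a). This sum does not measure lymphocytes alone. It was 10.4 to 18.8 CPM in dex germ libraries, where Cd79a and Cd2 were called higher than in dex somatic libraries. Of 8 endothelial, 6 Leydig and 4 erythroid markers tested, 1, 1 and 2 were called lower, and of 8 Sertoli and 5 germ cell markers edgeR called 0, with 1 and 0 at an unadjusted p under 0.05.

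**Figure D4:**
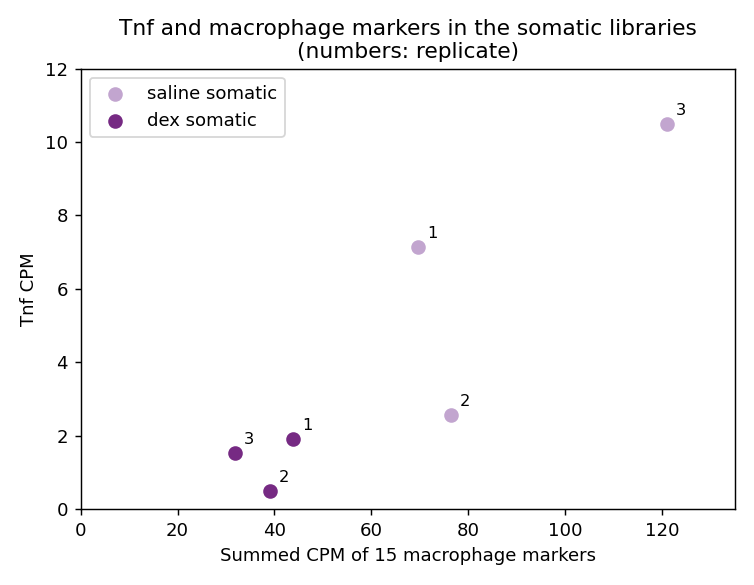
Tnf CPM on the vertical axis against the summed CPM of 15 macrophage markers on the horizontal axis in the 6 somatic libraries, numbered by replicate. The 3 dex libraries (31.8 to 43.9 CPM of markers) lie below the 3 saline libraries on both axes.

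The other receptor genes moved less. Il1r1 read 16.3, 13.1 and 11.8 CPM in dex and 8.76, 9.83 and 10.5 CPM in saline somatic libraries. All dex libraries were above all saline libraries, as for 21.5% of all genes tested in either direction, and the log2 fold change of 0.54 (SE 0.183) did not pass (edgeR adjusted p = 0.137). Il1rap overlapped between the groups, with a log2 fold change of -0.076 and an interval from -0.51 to 0.358.

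The NF-kB subunits did not pass in somatic cells. Rela read 137, 138 and 139 CPM in dex and 141, 117 and 126 CPM in saline somatic libraries. The log2 fold changes of dex over saline were 0.14 for Rela (95% interval -0.0625 to 0.338), 0.17 for Nfkb1 (-0.0484 to 0.397), 0.22 for Nfkb2 (-0.0513 to 0.482) and 0.21 for Relb (-0.136 to 0.55). The edgeR adjusted p ran from 0.438 to 0.595, and in each gene the groups overlapped.

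Nor did the inhibitors pass. Nfkbia, which is raised by glucocorticoids in some cell types, read 109, 89.7 and 96.0 CPM in dex and 102, 110 and 120 CPM in saline. The log2 fold change was -0.14, with an interval from -0.339 to 0.0669. Tnfaip3 read 26.1, 14.4 and 17.6 CPM in dex and 25.4, 14.6 and 29.5 CPM in saline, with a log2 fold change of -0.24 (interval -0.763 to 0.287).

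Saline somatic replicate 2 was the lowest of its group for 5 of the 9 genes at 1 CPM or more, among them Tnf and Tnfaip3, and for 13 of 20 NF-kB target genes. It was lowest for 6 of 17 other Rel, IkB and IKK genes, 2 of 5 other IL-1 family genes and 23.1% of all genes. Without this library both dex calls in somatic cells held, with log2 fold changes of 3.97 for Il1r2 (edgeR adjusted p = 0.0431) and -2.74 for Tnf (0.00209).

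The rest of the pathway in somatic cells gave few calls. Of 9 other IL-1 family genes, 16 adaptors and kinases, 22 TNF signalling genes and 17 other Rel, IkB and IKK genes tested, edgeR called 0. At an unadjusted p under 0.05 the counts were 1, 0, 5 and 2, against 2701 of all 16766 genes tested. Of 21 NF-kB target genes 1 was called, the adhesion molecule Vcam1, which read 26.8, 32.1 and 25 CPM in dex and 12.8, 20.4 and 16.2 CPM in saline (log2 0.80, adjusted p = 0.00967). The peritubular and stromal markers rose beside it, as given with Il1r2, and their part was not tested. The ligand genes Il1b (log2 0.33, interval -0.436 to 1.09) and Il1a (1.17) did not pass. Il1rn, the natural IL-1 receptor antagonist, had 3, 0 and 7 counts in dex and 16, 13 and 55 in saline, and its log2 fold change of -2.89 did not pass (adjusted p = 0.136). Tnfrsf1a at 0.22 and Tnfrsf1b at -1.10 did not pass either.

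A list of the GR gene and genes that glucocorticoids are known to induce is given beside these. In somatic cells 6 of 8 were called higher, against 2.74% of all genes tested, with a median log2 fold change of 0.59. The list was made of genes known to answer to glucocorticoids, with results of these data known, so nothing is read from this share. Tsc22d3, which encodes GILZ, a protein that binds NF-kB, rose from 37.2, 37.0 and 44.9 CPM to 78.8, 83.4 and 75.6 CPM (log2 1.03, edgeR adjusted p = 8e-05). Zfp36, which encodes an RNA-binding protein that destabilizes Tnf mRNA, rose by 0.97 on the log2 scale, and Klf9, Per1, Dusp1 and Anxa1 rose by 1.27, 0.74, 0.45 and 0.37. Fkbp5, a GR chaperone gene, at 0.17 and Nr3c1, the GR gene itself, at -0.15 did not pass.

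**Figure D5:**
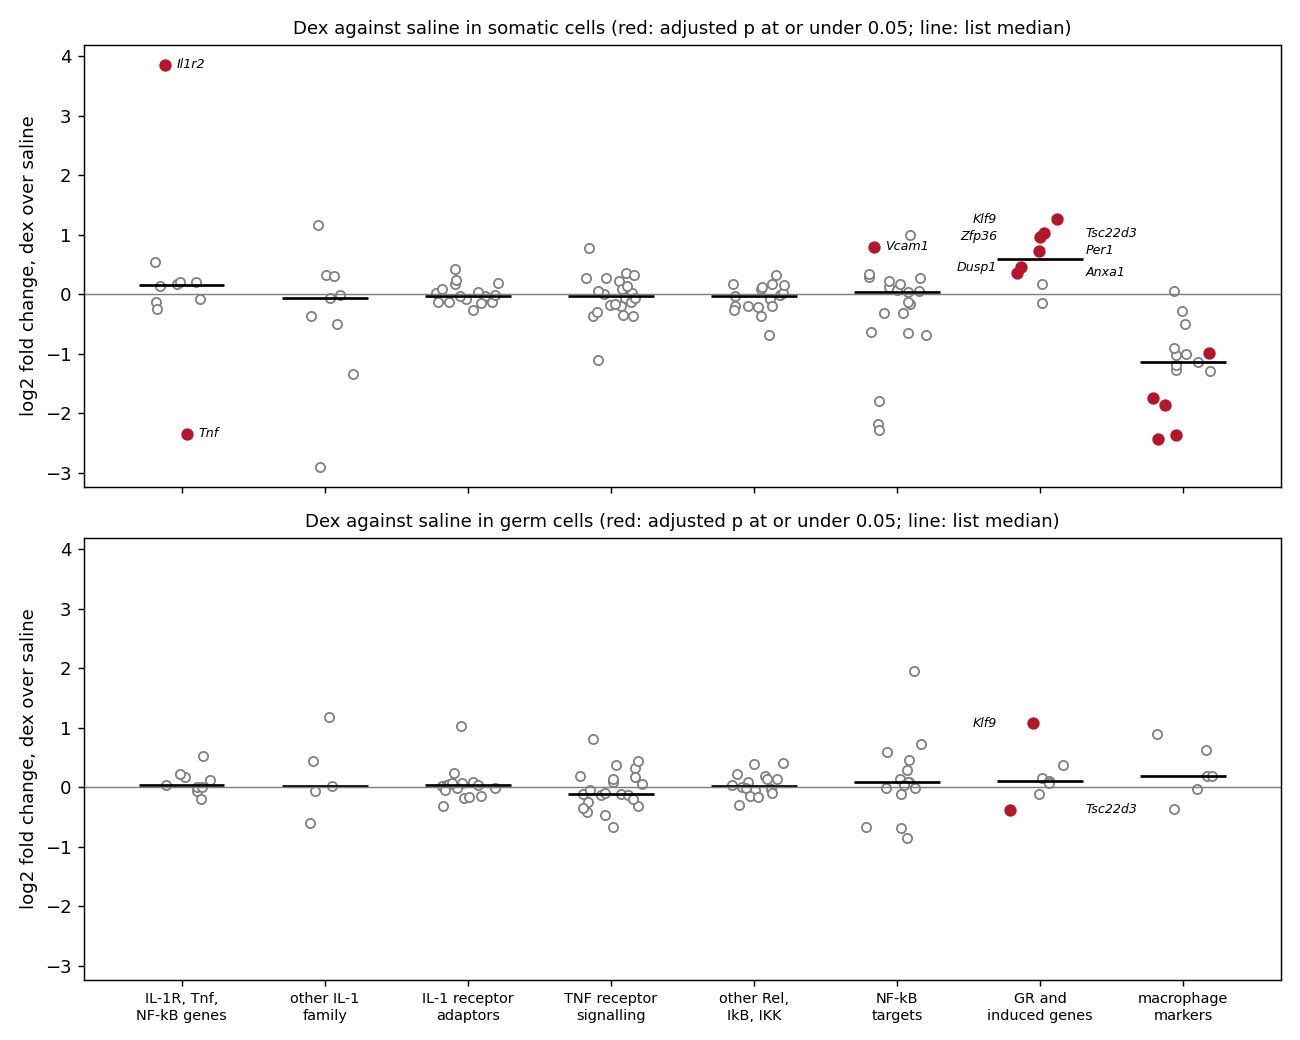
Log2 fold change of dex over saline for every tested gene of 8 lists in somatic cells (top) and germ cells (bottom); red points passed at an adjusted p of 0.05, open points did not, and the line is the list median. In somatic cells red points are seen for Il1r2, Tnf and Vcam1, for 6 of 8 genes of the GR list, all higher, and for 5 of 15 macrophage markers, all lower; in germ cells only Klf9 and Tsc22d3 are red.

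In germ cells, dex was compared with saline in the same way. Of the 9 genes tested 0 were called by edgeR, and 0 by DESeq2, against 1.25% of 18550 genes tested by edgeR (0.739% higher, 0.507% lower). An unadjusted edgeR p under 0.05 was found for 1 of the 9 and for 2736 of the 18550, so nothing is read from this count. The median log2 fold change was 0.0416 for the 9 genes and -0.00273 for all genes. Tnf was not tested, with 12 counts over the dex and 9 over the saline libraries.

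Nfkbia was the gene with the unadjusted p under 0.05. It read 9.45, 10.8 and 11.5 CPM in dex and 5.35, 7.42 and 9.26 CPM in saline germ libraries, so that the lowest dex library lay just above the highest saline library. Groups that do not overlap were found for 20.1% of all genes. The log2 fold change was 0.52 (SE 0.206, interval 0.0815 to 0.961), and it did not pass (edgeR adjusted p = 0.241, 0.131 to 0.585 over 15 alternatives).

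Il1r2, high in these cells, read 13.7, 9.0 and 11.6 CPM in dex and 11.8, 10.1 and 13.5 CPM in saline. The groups overlapped, and the log2 fold change was -0.057, with an interval from -0.456 to 0.343. Rela was the most tightly measured, at 0.0144 with an interval of -0.176 to 0.205. Nfkb1 (0.00613), Relb (0.0416), Il1rap (0.12), Il1r1 (0.18), Tnfaip3 (0.22) and Nfkb2 (-0.20) also overlapped between the groups, with edgeR adjusted p between 0.615 and 0.991.

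The related lists gave 0 calls by edgeR in germ cells among 5 other IL-1 family genes, 16 adaptors, 22 TNF signalling genes, 16 Rel, IkB and IKK genes and 15 NF-kB targets tested. At an unadjusted p under 0.05 the counts were 1, 2, 3, 1 and 4, against 2736 of all 18550 genes tested. Tnfrsf1b, with all dex above all saline libraries, had a log2 fold change of 0.81 (adjusted p = 0.172), and Tnfrsf1a of -0.12. Of the 7 GR list genes tested, Klf9 rose by 1.08 (adjusted p = 0.0014) and Tsc22d3 fell by 0.37 on the log2 scale (0.0225). Zfp36 at 0.37, Dusp1 at 0.16, Per1 at 0.10, Fkbp5 at 0.071 and Nr3c1 at -0.11 did not pass, and Anxa1 was too low to test.

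Whether dex acted differently on the 2 populations was tested as the dex effect in germ cells minus that in somatic cells, over all 12 libraries. Of the 10 genes 1 was called, Il1r2, against 0.827% of the 20551 genes tested (0.414% in each direction). Its difference was -3.88 on the log2 scale (SE 0.503, edgeR adjusted p = 0.00123): all 3 dex somatic libraries lay above all saline somatic libraries, while the germ libraries overlapped. The call was lost under limma on log2(FPKM + 1), a scale on which low genes move little, where the difference was -0.82 (adjusted p = 0.11; 5.62e-08 to 0.11 over 19 alternatives).

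Nfkbia had dex effects of opposite sign, 0.52 in germ and -0.14 in somatic cells, and the difference of 0.69 did not pass (SE 0.211, edgeR adjusted p = 0.148, 0.0143 to 0.336 over 20 alternatives). Without a filter on low counts it passed (0.70, adjusted p = 0.0143). The difference for Tnf of 2.59 did not pass either (adjusted p = 0.33). For the other 7 genes the differences ran from -0.38 for Nfkb2 to 0.49 for Tnfaip3, none passing.

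Of the wider pathway, Cyld and Gadd45b were called in this test. Cyld, a deubiquitinase that limits NF-kB signalling, read 32.7, 30.3 and 31.6 CPM in dex and 24.9, 23.0 and 24.0 CPM in saline germ libraries, but 16.4, 21.2 and 20.9 CPM in dex and 24.2, 26.6 and 26.2 CPM in saline somatic libraries. The groups did not overlap in either population, and the difference between the effects was 0.78 (edgeR adjusted p = 0.0496). Gadd45b, a stress gene induced by NF-kB, read 2.91, 4.21 and 2.77 CPM in dex and 5.44, 6.3 and 6.0 CPM in saline germ libraries and 113, 90.5 and 115 CPM in dex and 80.9, 79.5 and 97.5 CPM in saline somatic libraries (difference -1.14, adjusted p = 0.0222). Neither gene passed in a single population.

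Across the 12 libraries, after each group's mean log2 CPM was subtracted, the genes closest to a given gene were listed as a description. Tnfaip3 was closest to Atp6v1f (Pearson r = 0.985) and Btg2 (0.957), Tnf to Mtus2 (0.964) and Atp6v0b (0.954), and Il1r2 to Hesx1 (0.944) and Nhs (0.929). For the other 7 genes the 2 closest had r from 0.919 to 0.974. These pairs were picked from all genes tested for their likeness and so carry no test.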

How the data were processed

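Poly(A) RNA from FACS-sorted PN1 testis cells was sequenced in 12 libraries (4 groups of 3, grouped by the sample labels). Per the labels and the study's methods, the authors aligned paired-end reads to mm10 with HISAT2 2.0.5 and counted them per gene with featureCounts 1.5.0-p3; the strand setting is not given in the sources used here. The deposited count table holds raw counts per gene, and the deposited FPKM table scales them by gene length and depth. The authors' comparison tables (DESeq2 fold changes and p-values) were not used.

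Genes were filtered with filterByExpr (minimum count 10), scaled by TMM and tested with edgeR 4.0.16 (R 4.3.3, glmQLFit and glmQLFTest) within each pair of groups, 6 libraries per fit, and over all 12 libraries for the difference between dex effects. P-values were adjusted by Benjamini-Hochberg over all genes tested, with 0.05 as the threshold. Differences are dex minus saline and germ minus somatic. CPM is TMM-scaled. The fit was tested on simulated data. Alternatives were DESeq2 1.42.0, other scaling, no or a stricter filter, limma 3.58.1 on log2(FPKM + 0.1) or log2(FPKM + 1), a replicate block and leaving out each library. Counting intervals are exact, at 95 percent.

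The 10 genes and all gene lists were chosen with earlier results of these data known. All 10 genes are named in every comparison. Of the 5 pathway lists (IL-1 family, adaptors, TNF signalling, Rel, IkB and IKK genes, NF-kB targets), the genes called in a dex comparison or in the test of the difference are named, and in the germ against somatic comparisons the gene with the largest called change in each direction at 1 CPM or more. The IL-1 ligands, TNF receptors, GR list, 4 macrophage markers and 5 sort markers are named as well. The 2 most alike genes are given by Pearson r. Cell type marker lists are given as counts and sums. S100a8, Cxcr2, Mrc1 and the library patterns were looked at after their values were seen. 1 gene of the lists, Il36rn, was not found in the tables. In the main fits libraries were not paired by replicate number. Correlations of deviations between same-numbered libraries ran from -0.0876 to 0.045. For germ against somatic cells in saline they were 0.0376, 0.045 and 0.0366, and libraries of unlike number gave -0.0287 to -0.00862. In dex the same-numbered values were -0.00286, -0.0164 and -0.0157, and unlike numbers gave -0.0105 to 0.0244. Whether fractions of the same number came from 1 pool was not settled by these values. No 2 libraries were copies.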

Additional observations from a re-analysis of the deposited data

Results flagged for a closer look

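The dex effect differed between germ and somatic cells in a test of the difference itself for Il1r2 among the 10 genes, by -3.88 on the log2 scale (edgeR adjusted p = 0.00123), with 3 of 3 dex somatic libraries above all saline somatic libraries. Among the 5 pathway lists and the glucocorticoid list it differed for Cyld by 0.78 (adjusted p = 0.0496), for Gadd45b by -1.14 (0.0222), and for the glucocorticoid-induced genes Tsc22d3 by -1.37 (3.2e-05) and Per1 by -0.60 (0.0282). Tsc22d3 rose in somatic cells and fell in germ cells, each passing by itself, and Per1 rose in somatic cells. Among the cell type markers it differed for Mrc1 (macrophage) by 1.91 (0.0149), Pecam1 (endothelial) by 1.05 (0.0496), Ddx4 (germ) by 1.27 (0.0462), Fshr (Sertoli) by -3.25 (0.0385) and Col1a1 (stromal) by -0.87 (0.0282). Ddx4 had only 8 to 34 counts in the somatic libraries, and its dex effect in germ cells, 0.077, was not called. Fshr was too low to test for dex in germ cells. The differences for Ddx4 and Fshr thus rest on low counts in the fraction that the marker does not mark.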

How the results depend on the processing

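For the 10 genes, 738 of 765 values under an alternative kept their direction and side of the threshold. Genes called for dex in somatic cells numbered 1 of the 10 with at least 10 counts in every library (Il1r2 left out) and under limma at either pseudocount, and 0 to 2 when 1 library was left out. For the difference between dex effects the number was 2 without a filter, 0 with at least 10 counts in every library and 0 under limma on log2(FPKM + 1). In germ cells it was 0 under every alternative run. Il1rap between populations was lost under limma. All genes called for dex in somatic cells (655) became 1061 without a filter, 251 and 281 under limma, and 354 to 547 leaving out 1 library. In germ cells (231) they became 711 under DESeq2, 767 without a filter, 6 and 12 under limma, and 49 to 265 leaving out 1 library. For the difference (170) they became 648 under DESeq2, 706 without a filter, 262 with the strict filter, 57 under limma on log2(FPKM + 0.1), and 79 to 172 leaving out 1 library. The cause was not tested, apart from the genes removed or added by a filter. With the replicate block, 65 genes were called in germ cells and 104 for the difference, and no call of the 10 genes changed.

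Leaving out 1 library turned the sign only of values near 0 that were never called: for dex in somatic cells Il1rap (-0.21 to 0.0287), Il1b (-0.0352 to 0.595) and Nr3c1 (-0.235 to 0.0165), for dex in germ cells Il1r2 (-0.213 to 0.0944), Il1rap (-0.0573 to 0.291), Nfkb1 (-0.105 to 0.125), Rela (-0.0477 to 0.0636), Relb (-0.0171 to 0.0931) and Fkbp5 (-0.000257 to 0.166), and between saline germ and somatic cells Il1r1 (-0.116 to 0.113). Low counts limit Tnf in germ cells and Il1r2 in saline somatic cells.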

Other observations

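Genes of the 5 pathway lists that came nearest the threshold in germ cells, named after their values were seen, were Irak3 and Nos2. Irak3, an inhibitory kinase-like protein of the IL-1 receptor complex, read 6.25, 4.97 and 8.55 CPM in dex and 2.99, 3.36 and 3.27 CPM in saline germ libraries, a log2 fold change of 1.03 that did not pass (edgeR adjusted p = 0.0592). Nos2, inducible nitric oxide synthase and a textbook NF-kB target, read 2.91, 4.25 and 2.34 CPM in dex and 1.34, 0.213 and 0.829 CPM in saline germ libraries (log2 1.96, adjusted p = 0.061). In somatic cells the dex effect on Irak3 was 0.42, with overlapping groups, and Nos2 was too low to test. Mrc1 of the macrophage markers had a log2 fold change of 0.89 in germ cells (adjusted p = 0.0508).

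Il1rl2, the receptor of IL-36 cytokines that lies beside Il1r1 and Il1r2 in the IL-1 receptor cluster, was a somatic transcript: 10.1, 16.5 and 11.1 CPM in saline somatic libraries against 0.535, 0.373 and 0.0975 CPM in saline germ libraries (log2 -5.25, edgeR adjusted p = 2.19e-07). In this saline fit Il1rl2 passed the filter on low counts only through the somatic libraries. Its dex effect in somatic cells (-0.37) did not pass.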
